A study of Mus musculus with 12 samples.

Results

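Basement membranes are thin sheets of matrix that underlie epithelia and surround vessels, muscle and nerve. Laminins, trimers of an α, a β and a γ chain, form a network that is joined to the collagen IV network by nidogens and by heparan sulfate proteoglycans such as perlecan and agrin. Stellate cells of the pancreas lie beside such sheets and are known as a source of stromal matrix. The genes described here are 10 basement membrane genes, chosen by symbol from the 39179 rows of the count table: the laminin α chain genes Lama2, Lama4 and Lama5, the β chain genes Lamb1 and Lamb2, the γ chain gene Lamc1, the nidogen genes Nid1 and Nid2, and the proteoglycan genes Hspg2 and Agrn. All 10 symbols were found, once each.

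RNA was measured in mouse pancreatic stellate cells (PSCs) of strain C57BL/6, an SV40-immortalised line that is a single clone, clone 2, labelled with mCherry. They were grown for 72 h alone (mono-PSC), with PCC-EGFP tumour cells (2W-PSC), or with PCC-EGFP and MØ-TagBFP macrophages (3W-PSC), with 4 libraries per culture. The PCCs are mouse pancreatic cancer cells with p48-Cre, a ROSA26 rtTA-GFP allele and p53 fl/+, and the macrophages are the RAW264.7 line. The flasks of all 3 cultures held low-serum medium and received an equal total number of cells, and PSCs were then sorted on mCherry, without EGFP or TagBFP signal. The design states that the 4 libraries are biological replicates.

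Total counts ran from 4561817 to 8093368 per library, and the 10 genes together took 0.029% to 0.0796% of them. Levels are given as CPM, counts relative to library size, scaled over the 12 libraries by the trimmed mean of M-values. 3′ tag libraries yield about a single fragment per transcript whatever its length, so CPM was compared between genes without a length term. Replicate 2 of the 2W-PSC stood apart, with Spearman correlations of 0.857 to 0.919 to the other 2W-PSC libraries, against 0.948 to 0.987 for the 15 other pairs within a culture, over 11757 genes. Of 10 fibroblast markers, all had a count in at least 1 library of each culture and 7, 8 and 8 exceeded 10 CPM in mono-PSC, 2W-PSC and 3W-PSC, with summed levels of 4670 to 9100 CPM in mono-PSC, 8220 to 8430 CPM in 2W-PSC and 4980 to 6170 CPM in 3W-PSC. Epithelial markers, 12 genes, summed to 0.484 to 2.46 CPM in mono-PSC, 75.8 to 149 CPM in 2W-PSC and 52.4 to 91.2 CPM in 3W-PSC. Epcam was at 0 in every 2W-PSC library, where Cdh1 was at 10.3 to 34.4 CPM and Krt19 at 12.5 to 24.4 CPM. Against mono-PSC, all 5 epithelial markers tested in 2W-PSC and all 6 in 3W-PSC rose at an edgeR adjusted p under 0.05. Macrophage markers, 14 genes, summed to 9.48 to 10.7, 12 to 17.4 and 30.2 to 69.8 CPM in the same order. The sum of 69.8 CPM was in replicate 4 of the 3W-PSC, with 30.2 to 35 CPM in the other 3W-PSC libraries. Ptprc and Spi1 were at 0 in mono-PSC and 2W-PSC, and at 0 to 2.6 and 0 to 1.04 CPM in 3W-PSC, each highest in replicate 4. Emr1 (Adgre1) was at 0 in all 12 libraries. Csf1r was at 0 to 0.351 CPM in mono-PSC, 0.141 to 6.87 CPM in 2W-PSC and 1.95 to 3.12 CPM in 3W-PSC. Cd14 was at 2.35 to 9.05, 1.96 to 13.2 and 20.2 to 25.1 CPM in that order. Both lists moved with the cultures, and laminin, agrin and perlecan genes are also used by epithelial cells, so these levels stand beside every difference below and their part in it was not tested. In sorted pools, fewer cells with a transcript and less transcript per cell cannot be told apart.

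Against mono-PSC, 5 of the 8 genes with enough counts to test rose in 3W-PSC and 2 fell. Agrn rose most, 3.07-fold, followed by Lamb1, Lamc1, Hspg2 and Nid1, while Nid2 fell to 0.274 of its mono-PSC level and Lamb2 to 0.557. Across the 11551 genes tested in this comparison, 13.4% rose and 13% fell at an adjusted p under 0.05, and the median log2 fold change was 0.01, against 0.83 for the 8 genes. Libraries did not overlap, with 3W-PSC higher, for Agrn, Lamb1 and Lama5, and with 3W-PSC lower for Lamb2 and Nid2, where 13.7% and 12.2% of all genes tested were separated in these directions.

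With tumour cells alone, 0 of the 8 genes passed the edgeR test against mono-PSC. The list had 2 genes, Nid1 and Lamb1, at an unadjusted p under 0.05, both higher, and DESeq2 called 1, Nid1. Counts at an unadjusted p are given here and below without the share of all genes that reached it. They are description only. Of 11199 genes tested, 0.839% rose and 0.152% fell. Nid1 and Lamb1 were also the 2 genes whose libraries did not overlap, both higher in 2W-PSC, as held for 3.29% of all genes tested, with 2.45% separated in the lower direction. The median log2 fold change was 0.31 for the 8 genes and 0.02 for all genes.

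Macrophages were added within an equal total number of cells, so 3W-PSC and 2W-PSC differed in the mix of cells as well as in the presence of macrophages. The direct comparison of both called 1 of the 8 genes, Agrn, as higher. Here 5.73% of 11513 genes rose and 4.95% fell. Agrn, Hspg2, Lamc1 and Lamb1 were higher in every 3W-PSC library than in every 2W-PSC library, a separation seen in 11.5% of all genes, and 0 of the 8 genes separated in the lower direction, against 9.87% of all genes. At an unadjusted p under 0.05, 3 genes were higher and 2 lower, a count without the share of all genes beside it. The count varied between fits, and the cause was not tested. With replicate 2 of the 2W-PSC left out, 5 genes were called, Agrn, Lamc1 and Hspg2 as higher and Lamb2 and Nid2 as lower. In that fit 9.36% of 11736 genes tested were called as higher and 8.6% as lower. Without replicate 3 of the 2W-PSC there were 2, Agrn as higher and Lamb2 as lower, where 6.15% and 5.05% of 11730 genes were called in these directions. Each pair of the 3 comparisons shares the 4 libraries of a culture.

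**Figure D1:**
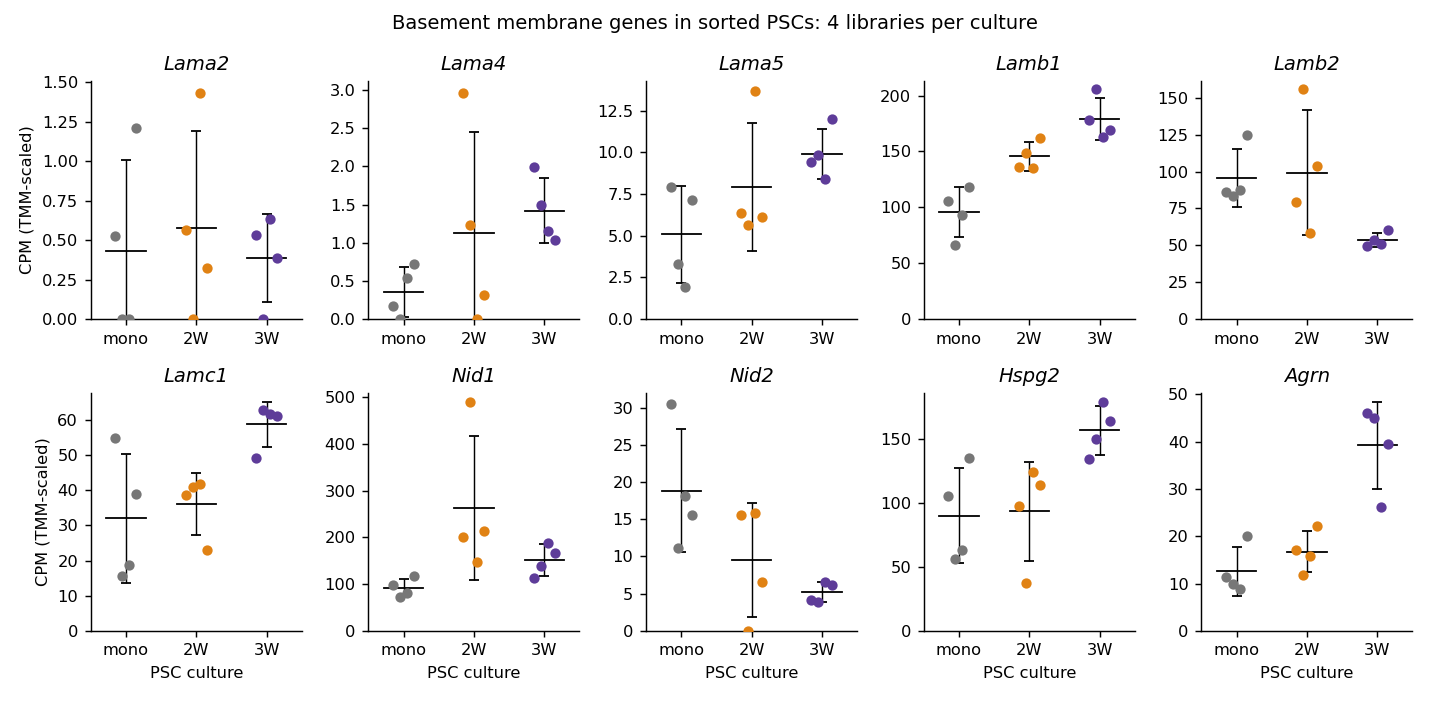
Level of each of the 10 basement membrane genes in PSCs, in TMM-scaled CPM on linear axes that start at 0, with 1 panel per gene. Points are the 4 libraries of mono-PSC, 2W-PSC and 3W-PSC, the horizontal bar is the mean and the error bar 1 SD. Agrn, Lamc1 and Hspg2 had their highest means in 3W-PSC, Nid1 its highest value in a 2W-PSC library at 489 CPM, and Lama2 and Lama4 stayed below 3 CPM.

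The β chain genes went opposite ways. Lamb1, chromosome 12 from 31265234 to 31329644 on the plus strand of GRCm38, encodes the chain of the widely expressed laminins. Its level was 106, 66.4, 93 and 118 CPM in replicates 1 to 4 of mono-PSC, 136, 149, 135 and 162 CPM in 2W-PSC, and 178, 206, 163 and 169 CPM in 3W-PSC. The 3 cultures did not overlap, and every co-culture library lay above every mono-PSC library. In 3W-PSC Lamb1 rose 1.86-fold over mono-PSC (log2 fold change 0.89 ± 0.17 SE, adjusted p = 0.00103). The 2W-PSC value was 1.53-fold (0.62 ± 0.21, adjusted p = 0.323), and 3W-PSC stood at 1.23-fold of 2W-PSC (0.30 ± 0.15, adjusted p = 0.233), neither of which passed the test.

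Lamb2, chromosome 9 from 108479736 to 108490530 on the plus strand, encodes the chain best known from the glomerulus and the neuromuscular junction. It was at 86, 83.6, 87.7 and 125 CPM in mono-PSC, 79.4, 156, 58.1 and 104 CPM in 2W-PSC and 49.7, 53.6, 50.7 and 60.3 CPM in 3W-PSC. All 3W-PSC libraries were below all mono-PSC libraries, whereas 2W-PSC spread over both ranges, with replicate 2 highest. Lamb2 fell by 0.85 on the log2 scale from mono-PSC to 3W-PSC (SE 0.17, adjusted p = 0.00104), to 0.557 of its level. From 2W-PSC to 3W-PSC the log2 fold change was -0.89 ± 0.27 (adjusted p = 0.0547), just outside the threshold. It became -0.59 (adjusted p = 0.0336) without replicate 2 of the 2W-PSC and -1.08 (adjusted p = 0.0149) without replicate 3. Between 2W-PSC and mono-PSC the log2 fold change was 0.07 ± 0.28, and -0.25 without replicate 2 of the 2W-PSC.

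The stretches ahead of these genes are shown because the pair moved in opposite directions. They are RefSeq promoter sequence of GRCm38.p6, written 5′ to 3′ on the gene's strand, starting 250 bases before the RefSeq start and ending before the first base of any annotated exon. Capitals mark the GC box GGGCGG, the core of the site of Sp1-type factors, on either strand, and the STAT motif TTCNNNGAA, which reads the same on both strands. Overlapping matches were each counted. Lamb1 is chr12:31265043-31265233 and Lamb2 is chr9:108479612-108479735, both on the plus strand.
Lamb1: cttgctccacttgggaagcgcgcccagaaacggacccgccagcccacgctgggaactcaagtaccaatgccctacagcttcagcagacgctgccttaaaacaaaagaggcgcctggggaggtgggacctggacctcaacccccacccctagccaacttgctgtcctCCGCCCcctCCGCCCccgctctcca
Lamb2: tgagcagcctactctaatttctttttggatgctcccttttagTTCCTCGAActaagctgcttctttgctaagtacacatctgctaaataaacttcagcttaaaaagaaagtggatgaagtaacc
Over the whole 300-base RefSeq window, Lamb1 held 63.7% G and C and 2 GC boxes, and Lamb2 held 44% and 0 GC boxes but 1 STAT motif. Of 32851 promoters, 35.7% held a GC box and 8.3% a STAT motif in the same window, and their median was 52.7% G and C. These matches describe the letters only.

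Lamc1, chromosome 1 from 153218922 to 153332786 on the minus strand, encodes the γ1 chain that most laminins share. It was read at 54.9, 15.5, 18.8 and 39 CPM in mono-PSC, 38.7, 41, 41.7 and 23.1 CPM in 2W-PSC, and 49.3, 63, 61.8 and 61.3 CPM in 3W-PSC. Replicate 1 of mono-PSC lay within the 3W-PSC range, and the other mono-PSC libraries lay below it. Lamc1 rose 1.82-fold in 3W-PSC over mono-PSC (log2 fold change 0.87 ± 0.29, adjusted p = 0.0349). This call was lost in 5 of the 8 fits that leave out a library, with adjusted p = 0.0919 and 0.121 without replicates 2 and 3 of mono-PSC, and 0.07, 0.0713 and 0.0616 without replicates 2, 3 and 4 of 3W-PSC, and also with all 12 libraries in one fit (0.0668). Compared with 2W-PSC, all 3W-PSC libraries were higher, at a log2 fold change of 0.71 ± 0.21 (adjusted p = 0.0542), and 0.77 (adjusted p = 0.0141) without replicate 2 of the 2W-PSC. In 2W-PSC against mono-PSC the log2 fold change was 0.19 ± 0.37 (adjusted p = 0.999).

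Transcripts of the α chains, which carry the binding sites for integrins and dystroglycan, were scarce. Lama5, chromosome 2 from 180176373 to 180225859 on the minus strand, encodes the α chain of the laminins of mature epithelial and vascular basement membranes and was the only α chain gene with enough counts to test. It was at 7.9, 3.33, 1.95 and 7.14 CPM in mono-PSC, 6.34, 5.64, 13.7 and 6.1 CPM in 2W-PSC and 9.43, 9.83, 8.4 and 12 CPM in 3W-PSC. Every 3W-PSC library was above every mono-PSC library, while the 2W-PSC spanned both. Against mono-PSC, Lama5 in 3W-PSC had a log2 fold change of 0.94 ± 0.37 (adjusted p = 0.0692), which did not pass the test, and passed it without replicate 1 of mono-PSC (1.20, adjusted p = 0.0191) or replicate 4 of mono-PSC (1.16, adjusted p = 0.0492). The other contrasts gave 0.66 ± 0.49 for 2W-PSC against mono-PSC (adjusted p = 0.959) and 0.31 ± 0.33 for 3W-PSC against 2W-PSC (adjusted p = 0.588).

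Lama2, chromosome 10 from 26980036 to 27619758 on the minus strand, is the α chain gene of muscle and nerve laminin, and Lama4, chromosome 10 from 38965515 to 39110188 on the plus strand, that of vessels and fat. Lama2 had at most 10 counts in a library and was at 0.527, 0, 0 and 1.21 CPM in mono-PSC, 0.563, 0, 1.43 and 0.321 CPM in 2W-PSC, and 0.531, 0, 0.636 and 0.39 CPM in 3W-PSC. Lama4 had at most 21 counts and was at 0.176, 0, 0.533 and 0.726 CPM in mono-PSC, 2.96, 1.23, 0 and 0.321 CPM in 2W-PSC, and 1.99, 1.5, 1.15 and 1.04 CPM in 3W-PSC. Both fell under the filter on low counts and were not tested. A count of 0 allows up to 3 counts, which is 0.347 to 0.736 CPM in the libraries concerned, so no difference was detectable for Lama2 at this depth. For Lama4 the 3W-PSC libraries were all above the mono-PSC libraries, with 8 to 15 counts against 0 to 6.

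Nidogens bind the laminin γ1 chain and collagen IV and so bridge both networks. Nid1, chromosome 13 from 13437551 to 13512269 on the plus strand, was the most abundant of the 10 genes in 2W-PSC. It was at 97.1, 73, 80.1 and 117 CPM in mono-PSC, 201, 489, 148 and 214 CPM in 2W-PSC and 112, 138, 189 and 167 CPM in 3W-PSC. The 2W-PSC libraries were all above the mono-PSC libraries, with replicate 2 far above the others, and the 3W-PSC libraries overlapped both. In 2W-PSC the mean was 2.9-fold that of mono-PSC (log2 fold change 1.53 ± 0.34, adjusted p = 0.0561), which did not pass the test. Nid1 was called without replicate 2 of the 2W-PSC (1.03, adjusted p = 0.00963) and without replicate 3 (1.73, adjusted p = 0.0223). In 3W-PSC it rose 1.64-fold over mono-PSC (0.72 ± 0.19, adjusted p = 0.00884), with replicate 1 at 112 CPM inside the mono-PSC range, and the call was lost with all 12 libraries in one fit (adjusted p = 0.114). From 2W-PSC to 3W-PSC the log2 fold change was -0.79 ± 0.34 (adjusted p = 0.161), and -0.31 without replicate 2 of the 2W-PSC (adjusted p = 0.265).

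Nid2, chromosome 14 from 19751265 to 19811787 on the plus strand, encodes the second nidogen. Its level was 30.5, 11.2, 18.1 and 15.6 CPM in mono-PSC, 15.6, 0, 15.9 and 6.58 CPM in 2W-PSC and 4.12, 3.93, 6.62 and 6.11 CPM in 3W-PSC. The 3W-PSC libraries were all below the mono-PSC libraries, and replicate 2 of the 2W-PSC had no count among 4561817, which allows up to 0.736 CPM. Nid2 fell by 1.87 on the log2 scale from mono-PSC to 3W-PSC (SE 0.32, adjusted p = 0.000306). In 2W-PSC the log2 fold change from mono-PSC was -0.95 ± 0.69 (adjusted p = 0.957). From 2W-PSC to 3W-PSC it was -0.90 ± 0.72 (adjusted p = 0.472), and -1.29 without replicate 2 of the 2W-PSC (adjusted p = 0.0163). The last exon of Nid2 shares 437 bases with Rtraf (2700060E02Rik) on the opposite strand, and the strand setting used for counting is not given in the sources used here, so reads of that stretch are uncertain. Rtraf was at 176 to 266 CPM in mono-PSC and 154 to 181 CPM in 3W-PSC, a log2 fold change of -0.37 ± 0.16 (adjusted p = 0.0957).

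Perlecan, encoded by Hspg2 on chromosome 4 from 137468769 to 137570630, plus strand, is the large heparan sulfate proteoglycan of most basement membranes. Hspg2 was at 105, 56.2, 62.8 and 135 CPM in mono-PSC, 97.4, 37.5, 124 and 114 CPM in 2W-PSC and 134, 150, 179 and 164 CPM in 3W-PSC. The 3W-PSC libraries were above all 2W-PSC libraries, and replicate 4 of mono-PSC touched the lower end of their range. Against mono-PSC, Hspg2 rose 1.73-fold in 3W-PSC (log2 fold change 0.79 ± 0.23, adjusted p = 0.0147), a call lost without replicate 3 of mono-PSC (0.66, adjusted p = 0.06) or with all 12 libraries in one fit (0.80, adjusted p = 0.09). Relative to 2W-PSC the log2 fold change was 0.75 ± 0.30 (adjusted p = 0.135), and 0.49 without replicate 2 of the 2W-PSC (adjusted p = 0.0318). In 2W-PSC against mono-PSC it was 0.07 ± 0.36 (adjusted p = 0.999).

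Agrin, encoded by Agrn on chromosome 4 from 156165290 to 156197488, minus strand, clusters acetylcholine receptors at the neuromuscular junction and binds laminin and dystroglycan. Agrn was at 11.4, 9.79, 8.88 and 20.1 CPM in mono-PSC, 17, 11.8, 15.9 and 22.2 CPM in 2W-PSC and 46.1, 44.9, 26.2 and 39.6 CPM in 3W-PSC. The 3W-PSC libraries lay above all 8 others, and mono-PSC and 2W-PSC overlapped. Agrn rose 3.07-fold over mono-PSC (log2 fold change 1.62 ± 0.26, adjusted p = 0.000192) and 2.34-fold over 2W-PSC (1.23 ± 0.25, adjusted p = 0.0109). Between 2W-PSC and mono-PSC the log2 fold change was 0.43 ± 0.32 (adjusted p = 0.969).

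The sequences ahead of both proteoglycan genes, which rose together in 3W-PSC, are shown with the same marks. Hspg2 is chr4:137468553-137468768 on the plus strand, and Agrn, at the 5′-most of its 2 RefSeq starts, is chr4:156197489-156197738 on the minus strand.
Hspg2: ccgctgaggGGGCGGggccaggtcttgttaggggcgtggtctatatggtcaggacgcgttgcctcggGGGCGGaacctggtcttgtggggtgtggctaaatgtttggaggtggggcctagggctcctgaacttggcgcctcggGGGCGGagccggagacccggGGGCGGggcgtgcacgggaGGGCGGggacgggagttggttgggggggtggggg
Agrn: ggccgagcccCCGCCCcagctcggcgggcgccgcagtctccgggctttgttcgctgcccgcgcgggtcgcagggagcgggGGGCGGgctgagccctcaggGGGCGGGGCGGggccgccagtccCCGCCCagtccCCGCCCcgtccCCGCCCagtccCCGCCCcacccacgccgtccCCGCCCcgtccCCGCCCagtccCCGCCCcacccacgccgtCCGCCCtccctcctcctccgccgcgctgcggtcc
The 300-base windows held 5 GC boxes in Hspg2 and 12 in Agrn, with 70.3% and 83.3% G and C, and neither held a STAT motif. RefSeq windows were matched for 7 of the 10 genes, 8 windows in all, and of these the Lamb2 window was the only one without a GC box. None of the 8 held the TATA box TATAAA on either strand, found in 13.6% of all promoters, or the AP-1 motif TGANTCA, found in 7.81%.

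**Figure D2:**
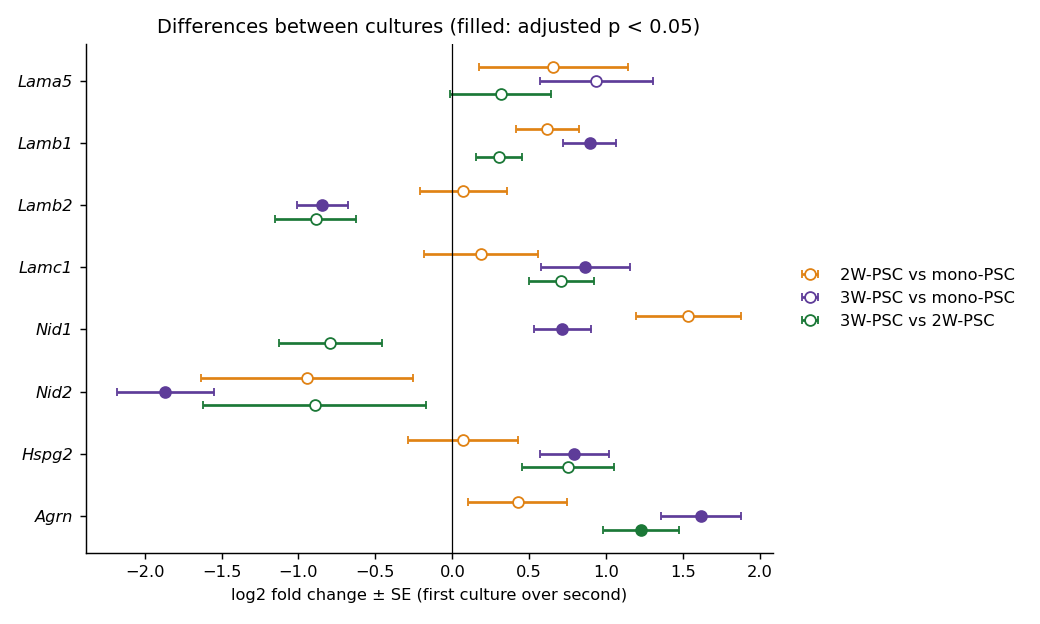
Log2 fold change between cultures for the 8 genes tested, 1 row per gene and 1 colour per comparison, with bars of 1 SE and filled points where the edgeR adjusted p is under 0.05. The 3W-PSC against mono-PSC points are filled for 7 genes, Nid2 (-1.87) and Lamb2 (-0.85) on the left and 5 genes on the right, the 3W-PSC against 2W-PSC points for Agrn (1.23) and the 2W-PSC against mono-PSC points for no gene.

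Shares within a library do not depend on how libraries are scaled, so the mix of related genes was compared as a description, with no test. Lamb1 made up 55.2%, 44.3%, 51.5% and 48.6% of Lamb1 and Lamb2 counts in mono-PSC, a near-even mix (mean 49.9% ± 4.61 SD, n = 4). In 2W-PSC it made up 63.2%, 48.8%, 69.9% and 60.9% (60.7% ± 8.81), and in 3W-PSC 78.2%, 79.4%, 76.3% and 73.7% (76.9% ± 2.45). The 3W-PSC shares were above all others. The lowest of them, 73.7%, had an exact 95% binomial interval of 71.6% to 75.8%, and the highest 2W-PSC share, 69.9%, one of 67.2% to 72.5%. Such intervals cover counting error alone.

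Nid1 took 83.2% ± 5.52 of nidogen counts in mono-PSC, 95% ± 4.32 in 2W-PSC and 96.7% ± 0.366 in 3W-PSC (SD, n = 4 each). The highest mono-PSC share, 88.2% (exact 95% interval 86.2% to 90.1%), was under the lowest co-culture share, 90.3% (88.3% to 92%), with intervals that overlapped. Hspg2 outnumbered Agrn in all 12 libraries, with 87.5% ± 2.1 of their summed counts in mono-PSC, 83.4% ± 5.26 in 2W-PSC and 79.8% ± 5.54 in 3W-PSC. These shares overlapped between all cultures. Lama5 took 78.6% to 100% of the α chain counts in mono-PSC, 64.3% to 90.5% in 2W-PSC and 78.9% to 89.3% in 3W-PSC, from as few as 14 counts in a mono-PSC library.

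**Figure D3:**
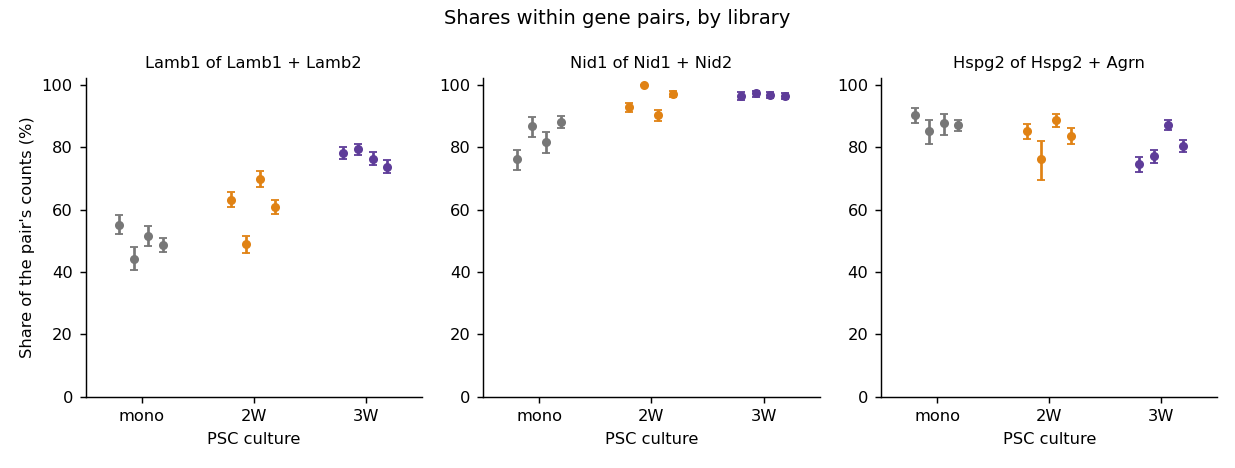
Share of Lamb1 in Lamb1 plus Lamb2 counts, of Nid1 in Nid1 plus Nid2 counts and of Hspg2 in Hspg2 plus Agrn counts, in percent on axes from 0, by library and culture. Points are libraries and bars are exact 95% binomial intervals. The Lamb1 share was 44.3% to 55.2% in mono-PSC and 73.7% to 79.4% in 3W-PSC, with 2W-PSC between 48.8% and 69.9%.

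Counts of β chain genes exceeded those of the γ chain gene, and these exceeded the α chain counts, in every library. There were 3.49 to 9.7 β counts per Lamc1 count in mono-PSC, 4.63 to 11.5 in 2W-PSC and 3.45 to 4.61 in 3W-PSC. The mono-PSC range overlapped both others. The 2W-PSC and 3W-PSC ranges barely missed each other, at 4.63 and 4.61, and no interval for counting error was computed for these ratios. Lamc1 counts per α count were 4.29 to 7.57, 2.76 to 5.96 and 4.12 to 6.08 in the same order. Among other laminin chain genes, Lama3 and Lamb3, which encode chains of the laminin of epithelial hemidesmosomes, had at most 5 and 2 counts in any library. Lama1 and Lamc3 had at most 1 and 3 counts.

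Among the basement membrane collagens, 1 of the 5 genes tested, Col4a5, a collagen IV chain gene, fell in 3W-PSC. It was at 50.9 to 74.9 CPM in mono-PSC, 49.1 to 81.1 CPM in 2W-PSC and 22.3 to 37.8 CPM in 3W-PSC, without overlap. The log2 fold change was -1.02 ± 0.20 against mono-PSC (adjusted p = 0.000933) and -1.01 ± 0.22 against 2W-PSC (adjusted p = 0.0157). The second call was lost without replicate 4 of the 2W-PSC (adjusted p = 0.0547) or replicates 1 or 2 of the 3W-PSC (0.0562 and 0.0648). In 2W-PSC against mono-PSC 0 of the 5 were called by edgeR, with 2 at an unadjusted p under 0.05, both higher. In 3W-PSC against 2W-PSC 4 of the 5 were lower at an unadjusted p under 0.05 and 3 had all 3W-PSC libraries below all 2W-PSC libraries, with a median log2 fold change of -0.50 beside 0.003 for all genes. In 3W-PSC against mono-PSC 1 was higher and 2 were lower at that unadjusted p, and the median was 0.21.

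Other basement membrane components split in both directions. Of 8 tested, 3 rose and 2 fell in 3W-PSC against mono-PSC, and 1 rose and 1 fell against 2W-PSC. In 2W-PSC against mono-PSC edgeR called 0 of them, with 3 at an unadjusted p under 0.05. Ntn1, the gene of the laminin-related guidance protein netrin-1, went from 0.533 to 2.81 CPM in mono-PSC to 9.25 to 14.3 CPM in 3W-PSC, a log2 fold change of 2.86 ± 0.39 (adjusted p = 3.57e-05), with 0.704 to 5.64 CPM in 2W-PSC (3W-PSC over 2W-PSC 2.10 ± 0.47, adjusted p = 0.0166). The latter call was lost without replicate 4 of the 2W-PSC (adjusted p = 0.0597) or replicates 1 or 4 of the 3W-PSC (0.0535 and 0.0561). Fbln2, the gene of fibulin-2, a protein that binds laminin and nidogen, rose 2.17-fold in 3W-PSC over mono-PSC (1.12 ± 0.16, adjusted p = 7.52e-05). Its levels were 248 to 392, 500 to 1090 and 579 to 697 CPM in mono-PSC, 2W-PSC and 3W-PSC, so both co-cultures lay above mono-PSC. The Fbln2 log2 fold change was 1.24 ± 0.27 in 2W-PSC against mono-PSC (adjusted p = 0.0553), just outside the threshold, and -0.09 ± 0.24 in 3W-PSC against 2W-PSC (adjusted p = 0.844). Sparc, the gene of a glycoprotein that binds collagen IV, fell to 0.55 of mono-PSC (adjusted p = 0.000898) and 0.357 of 2W-PSC (adjusted p = 0.00791). Its levels were 3680 to 4750, 4380 to 11200 and 2140 to 2710 CPM in mono-PSC, 2W-PSC and 3W-PSC.

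Of 11 receptor genes of laminin and agrin, 7 were tested. In 3W-PSC 1 rose and 2 fell against mono-PSC, and 0 rose and 2 fell against 2W-PSC, while in 2W-PSC against mono-PSC edgeR called 0, with 2 at an unadjusted p under 0.05. Itga6, which encodes the α6 subunit of laminin-binding integrins, rose 2.57-fold in 3W-PSC over mono-PSC (log2 fold change 1.36 ± 0.20, adjusted p = 8.34e-05), from 13 to 22.7 CPM to 39.5 to 48.2 CPM. The 2W-PSC libraries lay between these ranges at 26.9 to 37.6 CPM, with an Itga6 log2 fold change of 1.07 ± 0.25 against mono-PSC (adjusted p = 0.0717) and of 0.32 ± 0.18 from 2W-PSC to 3W-PSC (adjusted p = 0.284), neither of which passed the test. Itga7, a further laminin-binding integrin gene, fell by 0.97 ± 0.31 on the log2 scale from mono-PSC to 3W-PSC (adjusted p = 0.028). Its libraries overlapped, at 7.02 to 14.9 CPM in mono-PSC and 3.98 to 7.13 CPM in 3W-PSC. The Itga7 call was lost without replicates 3 or 4 of mono-PSC (adjusted p = 0.0751 and 0.111) or replicates 1, 2 or 4 of the 3W-PSC (0.0848, 0.0641 and 0.059). It was also lost with all 12 libraries in one fit. Itga1, the gene of a subunit that binds collagen and laminin, was at 3.91 to 6.29, 3.8 to 9.47 and 2.2 to 2.55 CPM in mono-PSC, 2W-PSC and 3W-PSC, lowest in 3W-PSC without overlap. It was called against both (adjusted p = 0.0289 and 0.0386), with at most 59 counts in a library. The first call was lost without replicates 2 or 4 of mono-PSC or any 3W-PSC library (adjusted p from 0.0505 to 0.0877), and the second without replicate 4 of the 2W-PSC or any 3W-PSC library (0.0847 to 0.126). Both Itga1 calls were also lost with no filter on low counts and with a replicate block. Mcam, the gene of an adhesion protein that binds laminin α4, was at 0.979 to 4.97 CPM in mono-PSC, 7.01 to 15 CPM in 2W-PSC and 2.04 to 4.29 CPM in 3W-PSC, with 2W-PSC above both others. It fell from 2W-PSC to 3W-PSC (log2 fold change -1.90 ± 0.35, adjusted p = 0.00701). Against mono-PSC the Mcam log2 fold change was 1.73 ± 0.48 in 2W-PSC (adjusted p = 0.163) and -0.19 ± 0.49 in 3W-PSC (adjusted p = 0.806), and neither passed the test.

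Perlecan and agrin carry heparan sulfate, and genes of the enzymes that build and trim these chains were measured alongside. Of 13 tested, 4 rose and 0 fell in 3W-PSC against mono-PSC, 2 rose and 0 fell against 2W-PSC, and 1 rose and 0 fell in 2W-PSC against mono-PSC. Ext1, a polymerase of the chain, was at 47.2 to 79.7 CPM in mono-PSC, 62.3 to 159 CPM in 2W-PSC and 262 to 377 CPM in 3W-PSC. It rose 5.14-fold over mono-PSC (log2 fold change 2.36 ± 0.19, adjusted p = 5.91e-08) and 2.65-fold over 2W-PSC (1.41 ± 0.26, adjusted p = 0.00665). Sulf2, an extracellular sulfatase that edits finished chains, rose 4.05-fold over mono-PSC (adjusted p = 4.51e-05) and 3.55-fold over 2W-PSC (adjusted p = 0.000278), while mono-PSC and 2W-PSC overlapped. Its relative Sulf1 rose 2.96-fold in 2W-PSC (1.57 ± 0.28, adjusted p = 0.016) and 2.64-fold in 3W-PSC (1.40 ± 0.21, adjusted p = 9.38e-05) over mono-PSC. The 2W-PSC call was lost without replicates 2, 3 or 4 of mono-PSC (adjusted p = 0.0756, 0.0515 and 0.0842) or replicate 4 of the 2W-PSC (0.0581). The median over the 13 genes in 3W-PSC against mono-PSC was 0.43, beside 0.01 for all genes.

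Dystroglycan binds laminin α chains, perlecan and agrin through a sugar chain that a dedicated set of enzymes builds. Of 8 genes of these enzymes tested, 2 rose and 0 fell in 3W-PSC against mono-PSC, and 0 were called in either other comparison. B3galnt2 rose 2.72-fold in 3W-PSC over mono-PSC (log2 fold change 1.44 ± 0.40, adjusted p = 0.0117, and 0.115 with all 12 libraries in one fit). It had 8 to 18 counts per mono-PSC library. Its 2W-PSC libraries, at 0 to 5.41 CPM, overlapped the 3W-PSC range of 4.94 to 6.24 CPM.

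**Figure D4:**
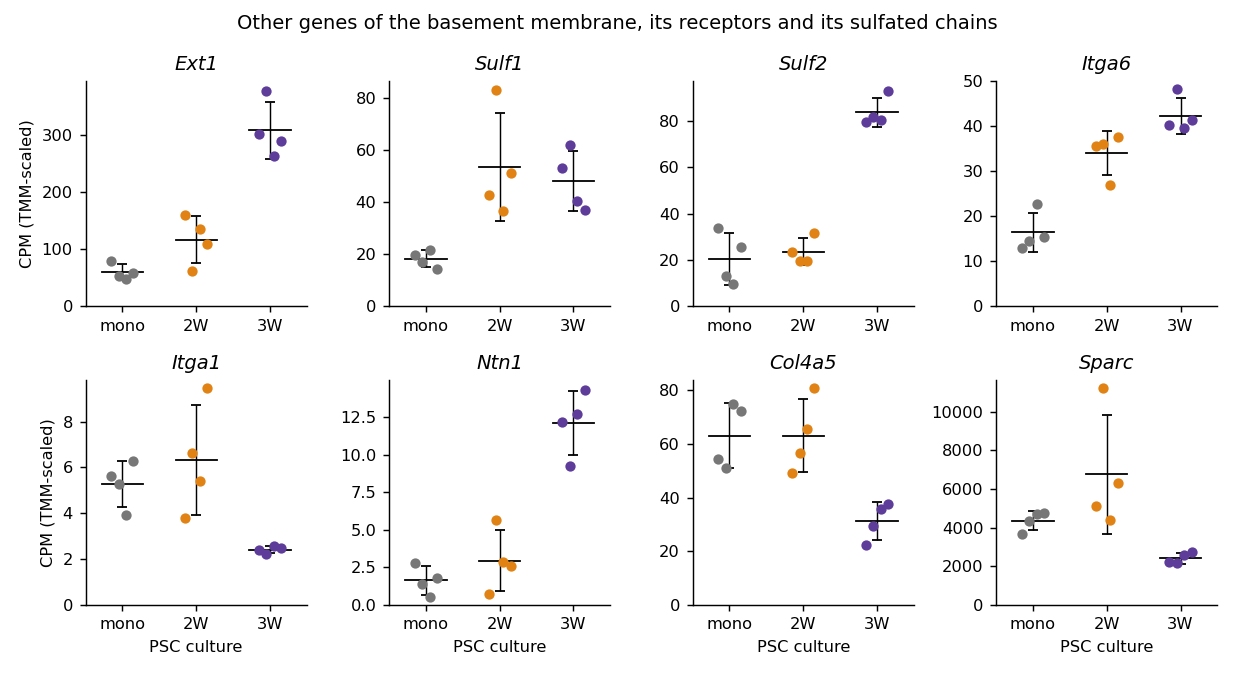
Levels of 8 further genes in TMM-scaled CPM on linear axes from 0: the heparan sulfate enzymes Ext1, Sulf1 and Sulf2, the integrin genes Itga6 and Itga1, and Ntn1, Col4a5 and Sparc. Points are the 4 libraries per culture, with the mean and 1 SD. Ext1, Sulf2 and Ntn1 were highest in all 3W-PSC libraries, and Itga1, Col4a5 and Sparc lowest.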

How the data were processed

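RNA of sorted mouse PSCs was sequenced with QuantSeq 3′ FWD libraries as single reads. The deposited values are raw counts per gene, made by the authors with STAR on GRCm38 and featureCounts with Ensembl annotation; FastQC and DESeq2 are also named in the submitters' processing notes. The strand setting is not given in the sources used here. Whole numbers summing to 4561817 to 8093368 per library identified the unit.

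Cultures were compared in pairs, 8 libraries each, with the edgeR 4.0.16 quasi-likelihood test (limma 3.58.1, R 4.3.3), TMM scaling, filterByExpr with a minimum count of 10 and Benjamini-Hochberg adjustment over all genes tested, and called at an adjusted p under 0.05. Fold changes used a prior count of 0.125, and SEs were derived from the F statistic. The code was tested on simulated data. The 10 genes, the lists and the rule for naming list genes (called genes, at most the 3 with the largest absolute log2 fold change per list and comparison) were chosen with earlier results of these data known. B4gat1 and Adgre1 were matched under older symbols. Some items of the lists and of the cell lines are not reported here. Alternatives were DESeq2 1.42.0, its size factors, other filters, all 12 libraries in one fit, a replicate block, a prior count of 2, leaving out abundant RNA genes, a fold threshold and leaving out each library. Replicate numbers come from the sample titles. Deviations of same-numbered 2W-PSC and mono-PSC libraries correlated at 0.102 to 0.338, over 0.1 in 4 of 4 pairs. In 3 of 4 the best match was the same number. On the rule of 4 pairs over 0.1, the numbers were taken to pair these samples. The values printed are from the fit without the block, so their SEs and p-values do not use this pairing. The block changed no call of the 10 genes in that comparison. With it edgeR called 135 genes there in place of 111. The log2 fold change of Nid1 was then 1.38 (adjusted p = 0.0671) and that of Nid2 -1.31 (adjusted p = 0.5). Positions are from GENCODE vM21 and promoters from RefSeq, both GRCm38. In the last 500 bases of their transcripts, no 75-base window of the 10 genes recurred in another gene.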

Additional observations from a re-analysis of the deposited data

Results flagged for a closer look

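Of 48 groups of 4 libraries tested for a lone extreme value by Dixon's criterion, 4 among the basement membrane genes held one, and chance gives about 1 in 20 groups. Lamb2 in replicate 4 of mono-PSC stood at 125 CPM, where the other mono-PSC libraries lay between 83.6 and 87.7 CPM. Lama5 in replicate 3 of the 2W-PSC stood at 13.7 CPM, above 5.64 to 6.34 CPM in the others. Lamc1 in replicate 4 of the 2W-PSC was low, at 23.1 CPM against 38.7 to 41.7 CPM, and Lamc1 in replicate 1 of the 3W-PSC was low, at 49.3 CPM against 61.3 to 63 CPM.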

How the results depend on the processing

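Fold changes were counted once per named gene, comparison and alternative fit. They kept their direction and their side of the threshold in 659 cases, gained a call in 20, lost it in 55 and changed sign in 9. A case without an adjusted p was counted as kept unless its sign changed. The 90 alternative values of the shares moved by less than 1 SD. Leaving out a library cannot move the mean of 4 shares by 1 SD, so that bound does not test the shares. The 9 sign changes were in 2W-PSC against mono-PSC, for genes that were not called. There Lamb2 was -0.008 with the replicate block and -0.25 to 0.26 when a library was left out, Lamc1 was -0.058 to 0.548 and Hspg2 -0.12 to 0.32. The calls of Agrn, Lamb1, Lamb2 and Nid2 in 3W-PSC against mono-PSC held in 16 of 16 alternative fits, and Agrn in 3W-PSC against 2W-PSC in 16 of 16. The 16 do not include the fold threshold. Under it Lamb1 (0.893) and Lamb2 (-0.845) were no longer called in 3W-PSC against mono-PSC, while Agrn and Nid2 were. A prior count of 2 left each adjusted p as it was, so those fits could not lose a call, here or among the 659. In 2W-PSC against mono-PSC the 111 genes called became 177 with no filter, 57 with at least 10 counts in every library, 262 with all 12 libraries in one fit, 275 with DESeq2 and 61 to 233 with a library left out. Of the 10 genes, 0 were called there, 1 (Nid1) with no filter, with all 12 libraries in one fit or with DESeq2, and 0 to 1 with a library left out. In 3W-PSC against mono-PSC the 3054 genes called became 1380 and the 7 of the list became 2 when an absolute log2 fold change above 1 was also required, and the 7 became 4 with all 12 libraries in one fit. In 3W-PSC against 2W-PSC the 1230 genes called became 752 with the replicate block, 672 with the fold threshold and 497 to 2107 with a library left out. There the 1 list gene called became 2 with no filter, 3 with at least 10 counts in every library, 2 with all 12 libraries in one fit, 3 (Agrn, Lamb2 and Lamc1) with DESeq2 and 1 to 5 with a library left out. The cause of these shifts was not tested. The replicate numbers of the 3W-PSC were not taken to pair with the others. Same-numbered deviations correlated at 0.000815 to 0.106 with mono-PSC and -0.0466 to 0.156 with 2W-PSC. In each case 1 of 4 pairs was over 0.1. With the block Lama5 was also called in 3W-PSC against mono-PSC (adjusted p = 0.0343), Itga1 was not, and no other call of the 10 genes changed. The low counts of Lama2 and Lama4 limit what can be said of the α chains.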
